A study of Mus musculus with 12 samples.

Results

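Fos, Fosb, Fosl1, Fosl2, Jun, Junb, Jund, Egr1, Atf3 and Ier3, 10 genes of the AP-1 and immediate early group, were followed in mouse embryonic fibroblasts (MEFs) with and without RTF2, a replication fork protein. The members were chosen by name, as rows of the deposited count table, and were 10 of the 24100 genes listed. None of the 10 passed the test between genotypes over both MEF lines. Within line 2, in a fit of all 12 libraries, Fosl2, Jun and Egr1 were lower in RTF2-deficient than in WT MEFs (0 members were called when the 6 line 2 libraries were fitted by themselves). In the WT libraries, again in the fit of all 12, Fosl1, Fosl2, Jun and Egr1 were higher and Ier3 was lower in line 2 than in line 1. Of these 5, only Fosl2 and Jun were called with the 6 WT libraries fitted by themselves. With a WT library left out, Fosl1, Egr1 and Ier3 were each called in 2 of 6 repeats. WT line 2 was also the only group with high Y-linked transcripts, so the line 2 comparison of genotypes and the comparison of WT lines carry a sex-linked difference. The comparison over both lines carries it in part. In it Ddx3y (log2 fold change -9.13, adjusted p = 0.000397 by edgeR), Uty and Eif2s3y were lower in RTF2-deficient MEFs. With each of the 6 line 2 libraries left out in turn, Fosl2 was called in 5 repeats, Egr1 in 1 and Jun in 0, and no member passed the test of a difference in genotype effect between lines.

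AP-1 is a family of dimeric transcription factors with a basic leucine zipper. FOS proteins (Fos, Fosb, Fosl1, Fosl2) bind DNA mainly when paired with a JUN protein, whereas JUN proteins (Jun, Junb, Jund) can also pair with each other. ATF3 joins the same network as a partner that often represses. Immediate early genes are transcribed within minutes of serum, growth factor or stress signals, without new protein synthesis, and in fibroblasts many of their transcripts decay fast once the signal ends. Egr1 (a zinc finger transcription factor) and Ier3 (an early response gene linked to cell survival) answer the same MAP kinase and serum response inputs.

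The 12 libraries form 4 groups of 3: Rtf2+/+ MEFs of line 1 (WT line 1) and of line 2 (WT line 2), and Rtf2-/lox MEFs of line 1 and of line 2, with a null allele and a floxed allele that Cre removes (RTF2-deficient line 1 and line 2). Every group received Cre, from a retrovirus 72 hrs before harvest, so WT cells carried Cre as well, and all were immortalized with SV40 large T antigen. The MEFs came from mid-gestation littermate embryos and the lines from different mothers, and the 3 libraries of a group are described as technical replicates, so p-values measure the spread between these libraries and not between embryos. The sources used here describe no serum withdrawal or other stimulus, and RNA was bulk, in which fewer cells of a type and less RNA per cell cannot be told apart.

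Library totals lay between 39360167 and 44695002 counts, and each member had at least 27 counts in every library. Rtf2 fell as labelled (log2 fold change -3.01, SE 0.057, adjusted p = 2.45e-11 by edgeR's quasi-likelihood test), to between 5.44 and 6.66 CPM from between 44.8 and 57.8 CPM. CPM are counts scaled to a common library size after TMM normalization (counts-per-million), and a call means a Benjamini-Hochberg adjusted p under 0.05 over the 14263 genes tested. Fibroblast markers were high throughout (19600 to 31800 CPM summed over 10 genes, and lowest in WT line 2), the summed epithelial, endothelial and blood cell markers were at most 13.1, 21.5 and 9.66 CPM, and those of muscle and neural cells were 22.0 to 63.3 CPM. Over both lines Krt18 (log2 fold change 0.74, adjusted p = 0.0381) and Kdr (0.58, adjusted p = 0.0492) were higher in RTF2-deficient MEFs, and in line 2 Cd68 (-1.07, adjusted p = 0.00809) and Mbp (-0.70, adjusted p = 0.0130) were lower. Mbp was higher in RTF2-deficient line 1 (0.71, adjusted p = 0.0342), and the other 3 muscle and neural markers tested had positive values in line 2 (median of the 4, 0.73; DESeq2 called 3). Between the WT lines Krt8, Krt18, Cd68 and Mbp were called higher in line 2, and Myod1, Tubb3, Col1a2, Thy1 and Pdgfrb lower. The part of these markers in the members' values was not tested. WT line 2 stood apart from the other groups in ways the labels do not name. It alone had high Y-linked transcripts and Xist at 0.0217 to 0.132 CPM, against 103 to 173 CPM elsewhere, and the summed level of 15 interferon-stimulated genes was 7560, 774 and 2200 CPM in its replicates 1, 2 and 3, against 103 to 480 CPM in the 6 libraries of line 1. In RTF2-deficient line 2 that sum was 184, 356 and 2900 CPM.

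Short stretches before the start of the genes are shown because AP-1 and CREB/ATF proteins bind motifs of this kind, and the members include both such proteins and their classical targets. RefSeq windows from 250 bases before to 50 after the start were held for 8 of the 10 members (GRCm38.p6). They were searched on both strands for the CArG box (the serum response element), TGANTCA (AP-1), TGACNTCA (the CRE-like form) and TGACG (the core of the CRE), where a full palindromic CRE would count under both of the last. TGACG lay in 4 of the 8 windows, against 20.8% of 32851 windows, and TGACNTCA in 1 of 8, against 8.83%. The CArG box and TGANTCA were in 0 of the 8, against 1.63% and 7.81%. These are matches of letters in this window only. The Fosb window is set on a start at chr7:19310045, so its stretch lies before that start but inside the longer annotated span of the gene, which ends at chr7:19310118. In the sequences below, written 5′ to 3′ on the strand of the gene, capitals mark the motif, and for Atf3 they read TGACG on the other strand.
Fos, bases -66 to -62 from the start, chr12:85473812-85473841, plus strand: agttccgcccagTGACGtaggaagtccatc
Fos, bases -129 to -125, chr12:85473749-85473778, plus strand: ggggcgtagagtTGACGacagagcgcccgc
Fosb, bases -60 to -56, chr7:19310088-19310117, minus strand: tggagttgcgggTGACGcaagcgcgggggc
Jun, bases -45 to -38, chr4:95052249-95052278, minus strand: aagcctcggggTGACATCAtgggctatttt
Junb, bases -106 to -102, chr8:84978837-84978866, minus strand: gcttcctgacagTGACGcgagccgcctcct
Atf3, bases -7 to -3, chr1:191183334-191183363, minus strand: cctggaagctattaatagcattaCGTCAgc

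Per kilobase of exon, the JUN proteins' genes Jund and Junb led. In WT line 1 the mean RPKM (CPM divided by exon length in kilobases) was 60 for Jund, 50.3 for Junb and 44.8 for Ier3, whose library ranges overlapped from each to the next. Jun, Fosl2 and Egr1 followed at 28.5, 26.8 and 25.9 RPKM and overlapped in the same way, then Fosl1 at 16.2, Fos at 4.63, Atf3 at 1.54 and Fosb at 0.278. Fos, the founding member, was thus near the foot of the order, and Fosl1 and Fosl2 carried most of the FOS family transcripts. RTF2-deficient line 1 had the same order apart from swaps among neighbours that overlapped, with Junb at 52.0 RPKM before Jund at 48.2 and Egr1 at 28.0 before Jun at 27.2. In WT line 2 the order differed more: Jun (49.6 RPKM), Egr1 (43.2), Fosl2 (36.9) and Fosl1 (35.9) all stood above Ier3 (29.6), although Ier3 overlapped Egr1 and Fosl1. Atf3 at 5.94 stood above Fos at 4.58 with overlap. RTF2-deficient line 2 had Ier3 (41.2 RPKM) back in the third place, before Jun (37.0), which it overlapped, and Egr1 (27.3).

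**Figure D1:**
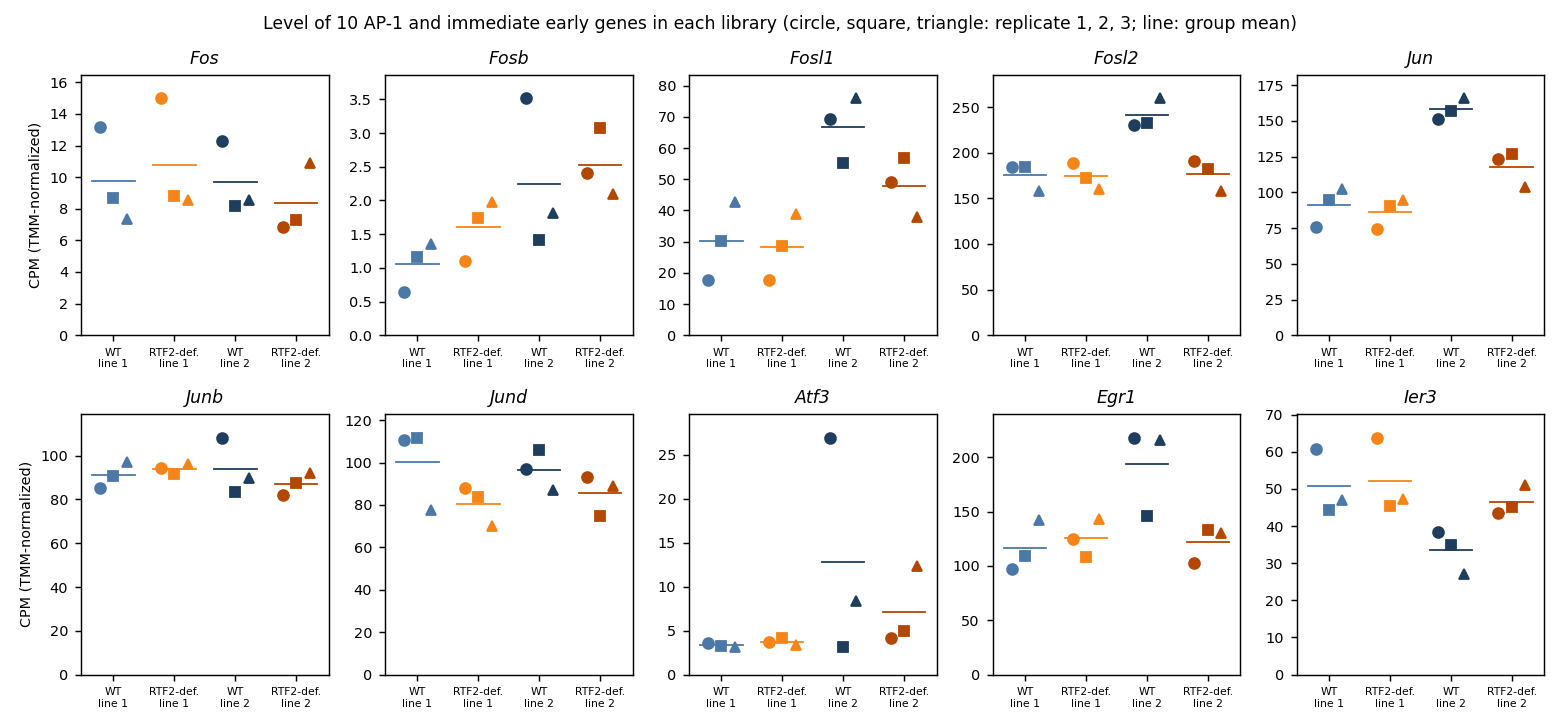
TMM-normalized CPM (vertical axes from 0) of each of the 10 genes in the 12 libraries, by group along the horizontal axis; circles, squares and triangles are replicates 1, 2 and 3 and the line is the group mean. Fosl2, Jun and Egr1 were highest in WT line 2, where Jun lay between 151 and 166 CPM, and Ier3 was lowest there, between 27.1 and 38.5 CPM.

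Fos (Entrez 14281, chr12:85473890-85477274 in GRCm38.p6, as are the other gene positions) was low and differed little by genotype or line. It lay at 13.2, 8.67 and 7.38 CPM in replicates 1, 2 and 3 of WT line 1 and at 15, 8.78 and 8.58 CPM in those of RTF2-deficient line 1. WT line 2 held 12.3, 8.18 and 8.55 CPM and RTF2-deficient line 2 held 6.86, 7.26 and 10.9 CPM. Replicate 1 was the highest library in each group but RTF2-deficient line 2, where replicate 3 was, and the genotypes overlapped in both lines. The log2 fold change, RTF2-deficient over WT, was -0.03 (SE 0.21, adjusted p = 0.936) over both lines.

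Fosb (Entrez 14282, chr7:19302696-19310118) was the least abundant member per kilobase, with 27 to 162 counts per library. Its 3 libraries of WT line 1 were at 0.645, 1.16 and 1.35 CPM and those of RTF2-deficient line 1 at 1.1, 1.74 and 1.97 CPM. In line 2 WT libraries were at 3.52, 1.41 and 1.82 CPM and RTF2-deficient libraries at 2.40, 3.08 and 2.10 CPM. All libraries of WT line 2 lay above those of WT line 1, and the same held between the lines for the RTF2-deficient groups. Neither difference between lines passed edgeR's test (log2 fold change, line 2 over line 1, 1.09 with adjusted p = 0.0850 in WT and 0.65 with adjusted p = 0.518 in RTF2-deficient MEFs). The WT difference was called by DESeq2 (adjusted p = 0.0393) and by edgeR without replicate 2 of WT line 2 (adjusted p = 0.0431). Over the 6 repeats of edgeR with a WT library left out, it ranged from 0.60 to 1.34, with an adjusted p up to 0.336, and was called in 1.

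Fosl1 (Entrez 14283, chr19:5447698-5455938), which encodes FRA-1, the FOS protein of migrating and transformed fibroblasts, differed more between lines and between libraries than between genotypes. It was at 17.6, 30.1 and 42.8 CPM in WT line 1 and, in the same order of replicates, at 17.6, 28.6 and 38.8 CPM in RTF2-deficient line 1. Same-numbered libraries of line 1 thus lay closer together than libraries of the same genotype. WT line 2 was at 69.3, 55.3 and 76.0 CPM and RTF2-deficient line 2 at 49.1, 56.7 and 37.7 CPM. Between the WT groups the log2 fold change, line 2 over line 1, was 1.15 (SE 0.33, adjusted p = 0.0406), the only called member beyond 1. This call held in 2 of 6 repeats with a WT library left out (adjusted p up to 0.119) and was lost with the 6 WT libraries fitted alone. Between the RTF2-deficient groups the log2 fold change was 0.76 (adjusted p = 0.35). Within line 2 the genotypes differed by -0.48 (adjusted p = 0.367).

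Fosl2 (Entrez 14284, chr5:32136472-32157840) encodes FRA-2 and had the highest mean RPKM of the FOS family in every group, narrowly over Fosl1 in line 2. The 3 libraries of WT line 2 were at 231, 233 and 260 CPM and those of RTF2-deficient line 2 at 191, 182 and 158 CPM, with no overlap. In line 1 the genotypes overlapped fully, at 184, 184 and 158 CPM in WT and 189, 173 and 161 CPM in RTF2-deficient MEFs, so 9 of the libraries shared the range from 158 to 191 CPM and WT line 2 lay above it. Within line 2 Fosl2 was lower in RTF2-deficient MEFs (log2 fold change -0.45, SE 0.098, adjusted p = 0.0134, 0.733 times the WT level). Within line 1 it was at -0.01 (adjusted p = 0.979), and the difference of the 2 effects, -0.44 (SE 0.14), had an unadjusted p of 0.00928 and an adjusted p of 0.253.

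Jun (Entrez 16476, chr4:95049036-95052222), the founding JUN gene, had a similar layout. It was at 76.0, 94.6 and 102 CPM in WT line 1 and 74.7, 90.4 and 94.7 CPM in RTF2-deficient line 1, where replicate 1 was lowest in both. WT line 2 was at 151, 157 and 166 CPM, above all other libraries, and RTF2-deficient line 2 was at 123, 127 and 103 CPM, above all libraries of line 1. The difference between lines was 0.80 in WT (SE 0.13, adjusted p = 0.00177, 1.74 times) and 0.44 in RTF2-deficient MEFs (SE 0.13, adjusted p = 0.121). Within line 2 Jun was lower in RTF2-deficient MEFs, at -0.42 (SE 0.12, adjusted p = 0.0488), which is at the edge of the threshold.

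Junb (Entrez 16477, chr8:84976909-84978748), a JUN protein that often counters Jun, was the steadiest member, between 82.2 and 108 CPM in all 12 libraries. It lay at 85.2, 90.8 and 97.0 CPM in WT line 1, at 94.3, 91.4 and 96.3 CPM in RTF2-deficient line 1, at 108, 83.5 and 89.7 CPM in WT line 2 and at 82.2, 87.5 and 92.0 CPM in RTF2-deficient line 2. All groups overlapped, and the log2 fold change over both lines was -0.03 (SE 0.068, adjusted p = 0.812). Jund (Entrez 16478, chr8:70697739-70700616), the JUN gene known for steady expression in resting cells, lay between 69.9 and 112 CPM. Its WT libraries were at 111, 112 and 77.8 CPM in line 1 and 96.9, 106 and 87.0 CPM in line 2, and its RTF2-deficient libraries at 87.9, 83.5 and 69.9 CPM and at 93.3, 75 and 89.0 CPM. The RTF2-deficient mean was lower in both lines, with overlap in each, and the value over both lines, -0.24 (SE 0.10, adjusted p = 0.143), was not called.

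Atf3 (Entrez 11910, chr1:191170296-191183333), induced by stress and by inflammatory signals, varied most between libraries. It was steady in line 1, at 3.56, 3.27 and 3.14 CPM in WT and 3.75, 4.12 and 3.34 CPM in RTF2-deficient MEFs. In line 2 it was at 26.9, 3.11 and 8.31 CPM in WT and at 4.14, 5.0 and 12.3 CPM in RTF2-deficient MEFs. Its highest value was thus 8.67 times its lowest, both within WT line 2. The 3 libraries with the most Atf3 were also those with the highest interferon-stimulated sums (7560, 2200 and 2900 CPM), and the part of the interferon-stimulated genes in this result was not tested. By edgeR with all libraries no comparison called Atf3: the log2 fold change was -0.35 over both lines (SE 0.46, adjusted p = 0.649), -0.84 in line 2 (adjusted p = 0.415) and 1.94 between the WT lines (SE 0.64, adjusted p = 0.0697). Between the WT lines DESeq2 did call it (adjusted p = 0.0288), as did edgeR without replicate 2 of WT line 2 (adjusted p = 0.0127). Without replicate 1 of WT line 2 these 3 edgeR values were 0.25, 0.34 and 0.76, so that single library set the sign of the first and second.

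Egr1, the zinc finger gene of the set, was at 97.5, 109 and 142 CPM in WT line 1 and 125, 108 and 143 CPM in RTF2-deficient line 1. WT line 2 was at 218, 146 and 216 CPM, and RTF2-deficient line 2 at 103, 133 and 131 CPM. Its WT line 2 libraries lay above those of every other group, if narrowly for replicate 2 against the 143 CPM of RTF2-deficient line 1. Within line 2 Egr1 was lower in RTF2-deficient MEFs (log2 fold change -0.66, SE 0.19, adjusted p = 0.0408, 0.632 times), and between the WT lines it was higher in line 2 (0.73, SE 0.19, adjusted p = 0.0242). With a library left out, the former call held in 1 of 6 repeats and the latter in 2 of 6. The RTF2-deficient groups of the lines differed by -0.04 (adjusted p = 0.965). The difference of the genotype effect between lines was -0.77 (SE 0.26), with an unadjusted p of 0.0137 and an adjusted p of 0.308.

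Ier3 (Entrez 15937, chr17:35821713-35822911) ran the other way. It lay at 60.8, 44.3 and 47.0 CPM in WT line 1 and 63.8, 45.3 and 47.3 CPM in RTF2-deficient line 1, with replicate 1 highest in both. In line 2 the WT libraries were at 38.5, 34.8 and 27.1 CPM, below every other library, and the RTF2-deficient libraries at 43.5, 45.1 and 51.1 CPM. Ier3 was lower in WT line 2 than in WT line 1 (log2 fold change -0.60, SE 0.17, adjusted p = 0.0396), a call that held in 2 of 6 repeats with a WT library left out. Within line 2 the genotypes did not overlap and the value was 0.48 (SE 0.17, adjusted p = 0.0956), which edgeR did not call and DESeq2 did (adjusted p = 0.0444).

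Counted together, 0 of the 10 members were called between genotypes over both lines by edgeR or by DESeq2, where 13.2% of all genes were called by edgeR and 18.9% by DESeq2, and 3 had an unadjusted p under 0.05 (Fosl2, Jun and Jund). By direction the background was 4.98% higher and 8.18% lower. Calls over both lines, of members and of other genes, include WT line 2, where genotype and the sex-linked pattern cannot be told apart. The median log2 fold change of the members was -0.24, against 0.00 over all genes tested, and 8 of 10 were negative. In 0 of 10 did the 6 RTF2-deficient libraries lie apart from the 6 WT libraries, against 5.97% of all genes (4.41% below and 1.56% above). Without replicate 1 of WT line 1, Jun passed (adjusted p = 0.0390).

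Within line 1, 0 of 10 members were called by either tool and 0 had an unadjusted p under 0.05, where 3.20% of genes were called by edgeR, 0.680% higher and 2.52% lower, and 6.04% by DESeq2. Same-numbered libraries of line 1 deviated from their group means together, and with the replicate number as a block there were again 0 members called, and 242 genes in place of 456. No member's genotypes separated in line 1, against 21.1% of genes.

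Within line 2 edgeR called 3 of 10 members lower (Fosl2, Jun and Egr1) and 0 higher, where 7.03% of genes were called lower, 5.42% higher and 12.5% in either direction. DESeq2 called 4, adding Ier3 as higher, where it called 18.2% of genes. Jun was not called with RLE size factors or with no filter on low counts. In 4 of 10 the genotypes did not overlap (Fosl2, Jun and Egr1 below, Ier3 above), against 29.5% of genes. In line 2 the genotypes also differed in sex-linked genes (log2 fold change -11.20 for Ddx3y and 11.13 for Xist), so genotype and this pattern cannot be told apart there. Left out in turn, the 6 libraries of line 2 gave between 0 and 2 called members. Fosl2 was called in 5 of the 6 repeats and lost without replicate 3 of WT line 2 (adjusted p = 0.0656). Egr1 was called only without replicate 2 of WT line 2 (adjusted p = 0.0169, and 0.0513 to 0.153 in the other repeats), and Jun in 0 of 6 (adjusted p 0.0715 to 0.142). Without the libraries with the highest interferon-stimulated levels, replicate 1 of WT line 2 and replicate 3 of RTF2-deficient line 2, 1 member was called (Fosl2, adjusted p = 0.0430). Replicate 3 of WT line 2, with an interferon-stimulated sum of 2200 CPM, was kept. With the 6 libraries of line 2 fitted alone, 0 were called and 5 had an unadjusted p under 0.05.

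A test of whether the genotype effect differed between lines called 0 of 10 members by edgeR and by DESeq2, against 1.29% of genes by edgeR (0.757% above and 0.533% below 0) and 2.87% by DESeq2. Fosl2 and Egr1 were the 2 with an unadjusted p under 0.05. Fosl2, Jun and Egr1 are thus called in line 2 and not in line 1, but their effects were not shown to differ between the lines.

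**Figure D2:**
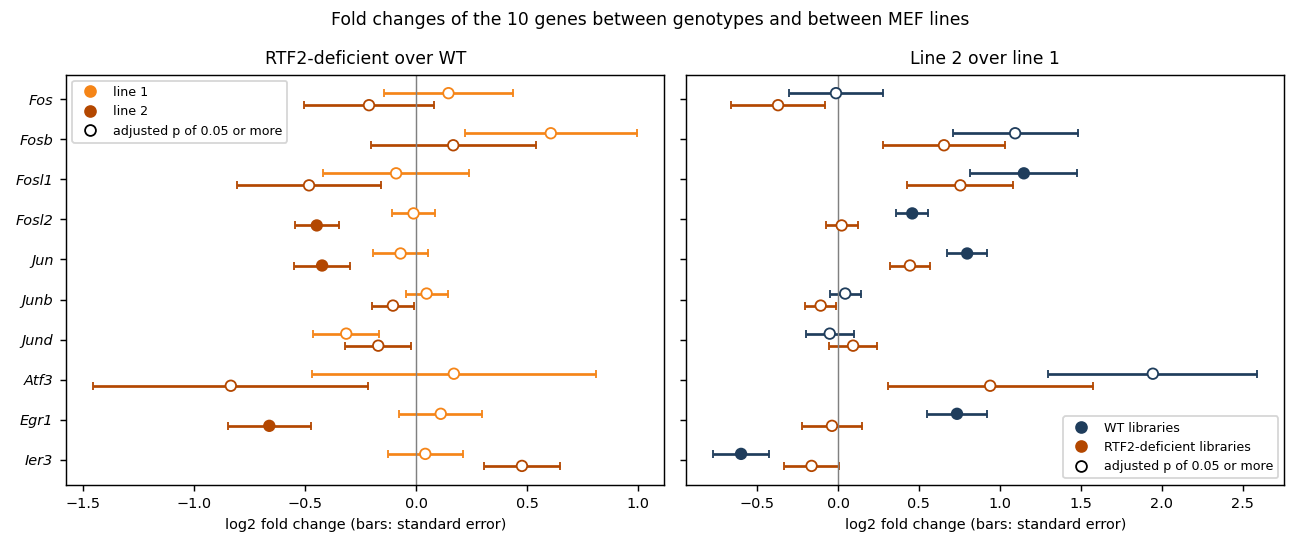
Log2 fold change (horizontal axes) with its standard error for the 10 genes, RTF2-deficient over WT in each line (left) and line 2 over line 1 in each genotype (right); filled points have an adjusted p under 0.05. On the left only Fosl2, Jun and Egr1 of line 2 are filled, and on the right only the WT values of Fosl1, Fosl2, Jun, Egr1 and Ier3 are, from 1.15 to -0.60.

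With all 12 libraries fitted, more members were called between the WT groups of the lines than between genotypes, but the counts were not tested against each other. With only the 6 compared libraries fitted, 2 were called between the WT lines and 0 between genotypes in line 2. Of the 10, 4 were higher in WT line 2 (Fosl1, Fosl2, Jun and Egr1, against 6.70% of genes called higher) and 1 was lower (Ier3, against 7.31%), where 14.0% of genes were called in either direction. DESeq2 called 7, adding Fosb and Atf3, both higher, where it called 19.3% of genes. The median log2 fold change was 0.60, against 0.02 over all genes. In 6 of 10 the libraries of the 2 WT groups did not overlap (Ier3 below, the 4 above and Fosb above), against 30.2% of genes. Between the RTF2-deficient groups 0 of 10 were called by edgeR, 1 by DESeq2 (Jun, adjusted p = 0.0294) and 2 had an unadjusted p under 0.05 (Fosl1 and Jun), where 1.94% of genes were called by edgeR (1.09% higher and 0.841% lower) and 4.92% by DESeq2, and 3 of 10 did not overlap (Fosb, Jun and Atf3 above), against 19.8%. The line 2 comparison of genotypes and the comparison of WT lines share the 3 libraries of WT line 2, so they are not independent: Fosl2 was at -0.45 in the former and 0.46 in the latter, Jun at -0.42 and 0.80, Egr1 at -0.66 and 0.73, and Ier3 at 0.48 and -0.60.

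Jun was called between the WT lines with each of the 6 WT libraries left out (adjusted p 0.00303 to 0.0101). Fosl2 was called in 5 of 6 and lost without replicate 3 of WT line 2 (adjusted p = 0.0570), the repeat that left Jun as the 1 called member. Fosl1, Egr1 and Ier3 were each called in 2 of 6. Without both interferon-high libraries 3 members were called (Fosl2, Jun and Ier3). That setting kept replicate 3 of WT line 2, with an interferon-stimulated sum of 2200 CPM, so it did not remove the interferon difference between the lines. Line and the sex-linked pattern cannot be told apart between the WT groups. The interferon-stimulated level was also higher in WT line 2, but it varied within that group (7560, 774 and 2200 CPM in replicates 1, 2 and 3). Its part in these calls was not tested.

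**Figure D3:**
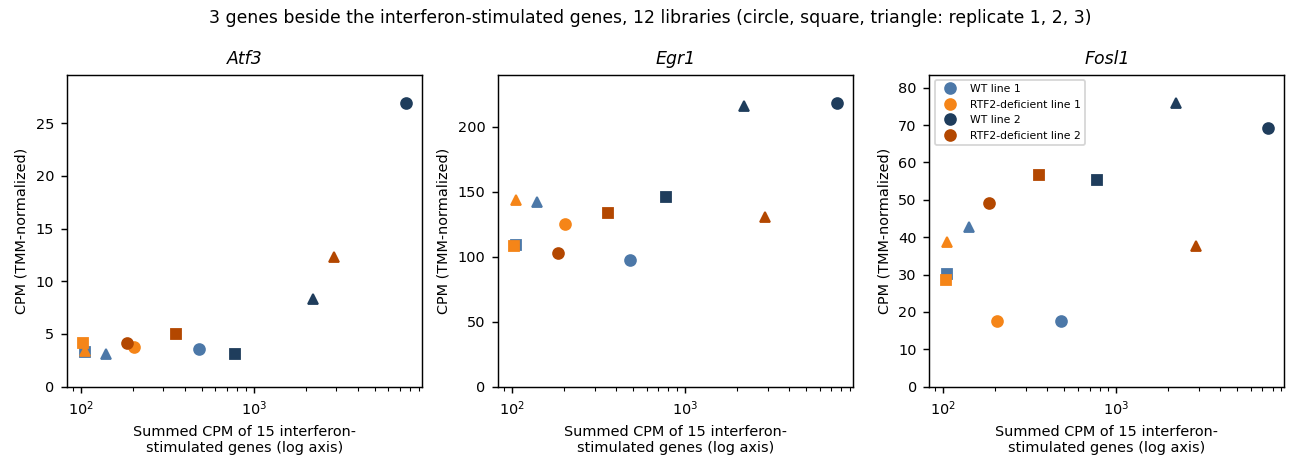
CPM of Atf3, Egr1 and Fosl1 (vertical axes from 0) against the summed CPM of 15 interferon-stimulated genes (horizontal log axis) in the 12 libraries, coloured by group, with circles, squares and triangles for replicates 1, 2 and 3. Atf3 exceeded 8 CPM only in the 3 libraries whose sum was 2200 to 7560 CPM, and at the sums of 7560 and 2900 CPM Egr1 was at 218 and 131 CPM and Fosl1 at 69.3 and 37.7 CPM.

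Of the 15 interferon-stimulated genes, 0 were called between genotypes over both lines by edgeR or DESeq2 (0 at an unadjusted p under 0.05; median log2 fold change -1.68, with all 15 negative) and 8 were called higher by edgeR in WT line 2 than in WT line 1, against 6.70% of genes. All 15 had an unadjusted p under 0.05 in that comparison and DESeq2 called 15, where it called 19.3% of genes. Between the RTF2-deficient lines all 15 were also positive (median 4.09), with 0 called by edgeR, 12 at an unadjusted p under 0.05 and 10 called by DESeq2, against 4.92% of genes by DESeq2. Isg15, a ubiquitin-like protein induced by interferon, was at 692, 99.2 and 296 CPM in WT line 2 and at 58.3, 6.24 and 9.77 CPM in WT line 1. Within WT line 2 replicate 2 had the lowest sum (774 CPM) and also the lowest Atf3 (3.11 CPM), Egr1 (146 CPM) and Fosl1 (55.3 CPM). In RTF2-deficient line 2, where the sums were 184, 356 and 2900 CPM, Egr1 was at 103, 133 and 131 CPM and Fosl1 at 49.1, 56.7 and 37.7 CPM. Heat shock genes, a sign of handling stress, had 0 of 7 called between genotypes over both lines by edgeR or DESeq2 (0 at an unadjusted p under 0.05), 0 by edgeR and 2 by DESeq2 within line 2 (2 at an unadjusted p under 0.05 by edgeR), and 2 of 7 higher in WT line 2 than in WT line 1 (Hspa1a and Hspa1b, which are near-identical copies and share reads). The part of these genes in the members' values was not tested.

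**Figure D4:**
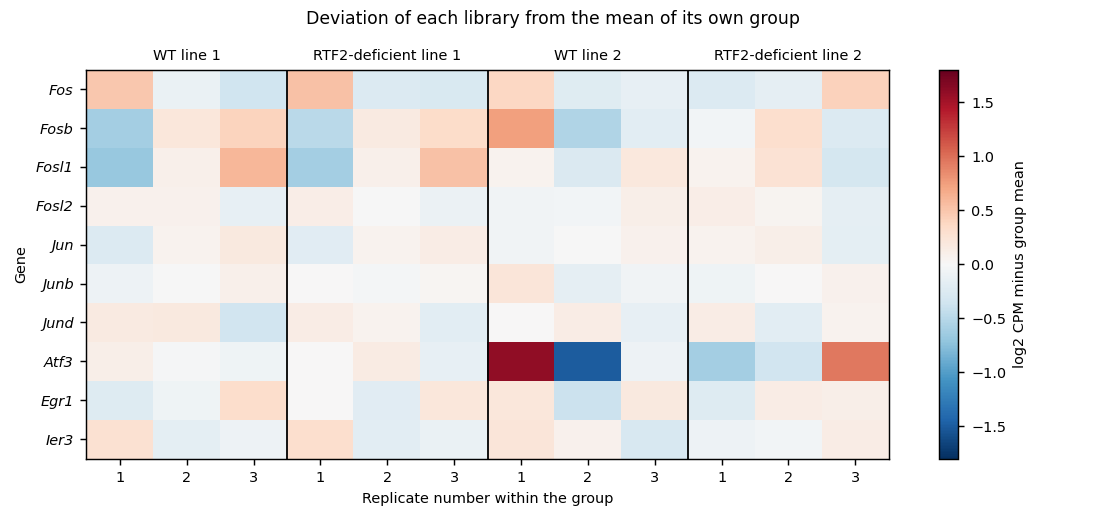
Log2 CPM of each library minus the mean of its own group, for the 10 genes (rows) and the 12 libraries (columns, by group and replicate number); red is above and blue below the group mean. In line 1 the columns of a replicate number look alike in both genotypes, as for Fosl1 at -0.69 and -0.61 in replicate 1, and Atf3 has its widest spread in WT line 2, from -1.5 to 1.60.

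In line 1 same-numbered libraries of both genotypes deviated alike for Fosl1 and Fos. Fosl1 deviated from its group mean by -0.69, 0.09 and 0.60 (log2) in replicates 1, 2 and 3 of WT line 1 and by -0.61, 0.09 and 0.53 in those of RTF2-deficient line 1. Fos deviated by 0.48, -0.12 and -0.36 and by 0.52, -0.25 and -0.28, with its highest library in replicate 1 where Fosl1 had its lowest. A test of replicate number in line 1, added after the data were seen, gave Fosl1 the lowest unadjusted p of the members (0.00248) but an adjusted p of 0.232, and called 0 of 10 members, against 0.0280% of genes. In line 2 Fosl1 deviated by 0.06, -0.26 and 0.20 in WT and by 0.06, 0.26 and -0.32 in RTF2-deficient MEFs, and the lowest unadjusted p of replicate number among the members was 0.138 (Atf3), with 0.00% of genes called.

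Other genes of the network were read as lists, compared over both lines unless stated, beside the same 13.2% of genes called by edgeR and 18.9% by DESeq2. The bZIP partners of AP-1 (ATF, BATF, JDP and MAF proteins) had 0 of 10 tested called by edgeR (3 at an unadjusted p under 0.05) and 0 by DESeq2, and the median was 0.04. Within line 2 edgeR called 3 of the 10, against 12.5% of genes: the small MAF genes Maff (0.42, adjusted p = 0.0135) and Mafg (0.32, adjusted p = 0.0430) were higher in RTF2-deficient MEFs and Maf, a large MAF gene, was lower (-1.69, adjusted p = 0.000365). Maf lay at 24.3, 21.9 and 21.2 CPM in WT line 2 and 5.65, 6.57 and 8.70 CPM in RTF2-deficient line 2, and its log2 fold change was 0.45 in line 1 (adjusted p = 0.292). The difference between lines, -2.14 (SE 0.26, adjusted p = 0.00537), was called.

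Of 30 other immediate early genes tested, 2 were higher (Ccn2 and Plk3) and 2 were lower (Nfkbia and Trib1), and the median was -0.07, while DESeq2 called 5. Ccn2, the matricellular growth factor CTGF, was higher by 0.44 (SE 0.12, adjusted p = 0.0322) and Plk3, a polo-like kinase, by 0.38 (SE 0.11, adjusted p = 0.0334). Nfkbia, the inhibitor of NF-kappaB, was at -0.33 (SE 0.075, adjusted p = 0.0127). It lay at 55.3, 51.6 and 52.1 CPM in WT line 2 and between 33.6 and 38.1 CPM in the other 9 libraries, and its genotype effect differed between lines by -0.42 (adjusted p = 0.0476). Trib1, a pseudokinase, was at -0.29 (SE 0.079, adjusted p = 0.0305), with -0.13 in line 1 (adjusted p = 0.627) and -0.45 in line 2 (adjusted p = 0.0102). Arc, an activity-regulated gene best known from neurons, was not called over both lines (-0.60, adjusted p = 0.257) but differed in genotype effect between lines by -2.08 (SE 0.20, adjusted p = 0.000989). Its libraries were at 29.8, 25.7 and 28.8 CPM in WT line 2 and between 3.92 and 9.53 CPM elsewhere. Between the WT lines 8 of the 30 were higher and 2 lower in line 2 by edgeR, against 6.70% and 7.31% of genes, among the higher Sgk1 (1.52, adjusted p = 0.00239) and Ptgs2 (1.08, adjusted p = 0.0379).

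Serum response and MAP kinase inputs had 5 of 21 genes called by DESeq2 and 2 by edgeR, both lower: Map2k2, the kinase MEK2, at -0.27 (SE 0.066, adjusted p = 0.0189) and Mapk9, the kinase JNK2 that phosphorylates JUN, at -0.26 (SE 0.049, adjusted p = 0.00553). Mapk9 was at 61.7, 59.4 and 61.9 CPM in WT line 1, 58.5, 51.5 and 59.2 CPM in WT line 2, 52.9, 48.6 and 48.6 CPM in RTF2-deficient line 1 and 47.8, 46.6 and 50.5 CPM in RTF2-deficient line 2. The ranges of the genotypes overlapped only through the 51.5 CPM library of WT line 2 and the 52.9 CPM library of RTF2-deficient line 1.

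MAP kinase feedback inhibitors had 0 of 16 called over both lines by edgeR (2 at an unadjusted p under 0.05) and 0 by DESeq2, with a median of 0.16. Dusp4, a phosphatase of ERK and JNK, was higher in RTF2-deficient line 2 than in WT line 2 (2.21, SE 0.16, adjusted p = 3.57e-05), at 3.71, 3.42 and 5.08 CPM in WT line 2 and 19.5, 20.8 and 16.1 CPM in RTF2-deficient line 2. In line 1 it was at -0.40 (adjusted p = 0.231), and the difference of effects, 2.61 (SE 0.22, adjusted p = 0.000381), was called. AP-1 target genes of fibroblasts had 1 of 19 tested called: Mmp9, a gelatinase, was higher by 1.51 (SE 0.33, adjusted p = 0.0110) at 0.191 to 1.33 CPM, or 8 to 59 counts per library. The list's median was -0.06, and DESeq2 called 3 of its genes.

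For the 3 members that varied most, genes with the most similar pattern over the 12 libraries were found by the root mean square difference of log2 CPM, each gene centred on its own mean, among 12230 genes. Atf3 (SD of log2 CPM 0.963) was closest to Pnpla7, a lysophospholipase (0.235), Slfn5, a Schlafen family protein (0.242), and Znfx1, an RNA helicase (0.299). In WT line 2 Pnpla7 was at 60.7, 11.6 and 23.7 CPM, and in RTF2-deficient line 2 at 9.77, 11.3 and 29.4 CPM, high in the libraries where Atf3 was high. Fosl1 (SD 0.691) was closest to Errfi1, a feedback inhibitor of the EGF receptor (0.195), Sgk1, the serum- and glucocorticoid-regulated kinase (0.241), and Kcnk5, a potassium channel (0.258). Errfi1 was at 24.1, 34.6 and 47.5 CPM in WT line 1 and at 29.2, 37.7 and 52.8 CPM in RTF2-deficient line 1, with the order of replicates seen for Fosl1. Fosb (SD 0.657) was closest to Dyrk3, a kinase (0.228), Ptgs2, the inducible cyclooxygenase (0.232), and Mertk, a receptor tyrosine kinase (0.234). These likenesses are descriptions over libraries that share groups and replicate structure.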

How the data were processed

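RNA from MEFs was sequenced as single-end reads. The authors' table holds, as deposited, whole-number counts by Entrez gene, not normalized, 1 column per library. Salmon on mm10 gene models with tximport is described in the methods and HTSeq in the notes to GEO, which leaves the counting tool unsettled. Strandedness and poly(A) selection: not given in the sources used here. Columns were matched to samples by title. RefSeq GRCm38.p6 gave symbols for 24045 of 24100 identifiers, and 4418 genes had no count.

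The tools were edgeR 4.0.16, DESeq2 1.42.0 and limma 3.58.1 under R 4.3.3. Genes passing filterByExpr on the 4 groups (14263) were TMM-normalized and fitted with glmQLFit and glmQLFTest (two-sided), with terms for line and genotype, and as contrasts in a layout of the 4 groups for single lines, their difference and line comparisons. Standard errors were taken as coefficient over root F. Log2 CPM used a prior count of 2. RPKM used the union exon length of GENCODE M21. The shallowest library allows up to 0.0762 CPM for a gene with no count (3 counts, counting error only).

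The text names the 10 members, Rtf2, in each list up to 4 genes per direction called over both lines and those called in the difference between lines, and the 3 genes most like each of the 3 most variable members (mean CPM of at least 1). Other genes were named after their values were seen. Members and lists were chosen with earlier results of these data known. Replicate numbers paired the genotypes in line 1 (correlation of deviations 0.625, 0.430 and 0.484) and the WT groups of the lines (0.426, 0.415 and 0.305), which is a reading of the data, but not the genotypes in line 2 (-0.587, 0.170 and -0.279) or the RTF2-deficient groups (-0.381, 0.0867 and -0.309). Alternatives were RLE size factors, no filter, DESeq2, a replicate block, no line term, summed triplicates, voom, the compared libraries alone and each library left out. Leaving out 2 interferon-high libraries and the test of replicate number were added after the data were seen. The fit was also run on simulated data, and the outcome of that run is not given here.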

Additional observations from a re-analysis of the deposited data

Results flagged for a closer look

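In 52 sets of 6 libraries of a genotype (members and named list genes), 4 held a library far from the others by Dixon's criterion. That criterion is a gap to the nearest library over the whole range beyond the 95% critical value. Chance gives it in about 5% of sets drawn from a common normal distribution. Each set here joins both lines, so the count cannot be read against that rate. Atf3 was at 26.9 CPM in replicate 1 of WT line 2, with the nearest WT library at 8.31 CPM. Atf3 was also at 12.3 CPM in replicate 3 of RTF2-deficient line 2, with the nearest at 5.0 CPM. Ier3 was at 63.8 CPM in replicate 1 of RTF2-deficient line 1, with the nearest at 51.1 CPM. Mapk9 was at 51.5 CPM in replicate 2 of WT line 2, with the nearest WT library at 58.5 CPM.

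The genotype effect (log2, line 2 minus line 1) differed between lines by edgeR's interaction test for 4 genes of the network: Maf by -2.14, Arc by -2.08, Nfkbia by -0.42 and Dusp4 by 2.61. In all 4 genes the libraries of WT line 2 lay apart from those of the other 3 groups, above them in Maf, Arc and Nfkbia and below them in Dusp4. The sex-linked genes differed in the same test, Xist by 11.19, Ddx3y by -11.32, Uty by -10.54 and Kdm5d by -5.04, with WT line 2 again the group apart.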

How the results depend on the processing

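Over both lines 1878 genes were called, and 1227 without the line term, 0 with triplicates summed (2737 at an unadjusted p under 0.05), 3457 with voom (within-group correlation -0.148) and 1158 to 1974 with a library left out, with 0 to 1 members called. Line 1 had 456 genes, 861 by DESeq2, 242 with the replicate block and 192 to 292 with a library left out. Line 2 had 1776 genes, 969 from its 6 libraries alone and 813 to 2372 with a library left out. Its 3 called members became 4 by DESeq2, 2 with RLE size factors or no filter (both without Jun), 0 from 6 libraries alone, 1 without both interferon-high libraries and 0 to 2 with a library left out. The difference between lines had 184 genes, 409 by DESeq2 and 66 to 164 with a library left out. WT lines had 1998 genes, 1258 from 6 libraries alone and 1260 to 2203 with a library left out, and their 5 members became 7 by DESeq2, 2 from 6 libraries alone, 3 without both interferon-high libraries and 1 to 6 with a library left out. RTF2-deficient lines had 276 genes, 702 by DESeq2 with 1 member, 177 from 6 libraries alone and 119 to 205 with a library left out. With the replicate block, line 2 kept 2 members (Fosl2 and Jun) and Egr1 had an adjusted p of 0.0569. Same-numbered libraries of line 2 share only a number: each line 2 library correlated best with another number of the other genotype (WT 1 with RTF2-deficient 3, 0.654; 2 with 1, 0.612; 3 with 2, 0.367), as did the RTF2-deficient groups between lines (0.514, 0.399 and 0.375). The block changed no other member's call. Summed triplicates leave no residual degrees of freedom within a line and were not run there. The causes were not tested.

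Signs turned only for uncalled values. Without both interferon-high libraries, Junb was at 0.024 over both lines and -0.084 between WT lines, and the Fosb difference between lines was 0.16. With a library left out, values over both lines ranged from -0.19 to 0.084 (Fos), -0.055 to 0.037 (Junb) and -0.55 to 0.25 (Atf3). In line 1 they ranged from -0.17 to 0.44 (Fos), -0.39 to 0.25 (Fosl1), -0.085 to 0.0335 (Fosl2), -0.18 to 0.026 (Jun), -0.0034 to 0.28 (Egr1) and -0.13 to 0.20 (Ier3). In line 2 they ranged from -0.44 to 0.0015 (Fos), -0.079 to 0.65 (Fosb), -0.18 to 0.018 (Junb) and -1.46 to 0.34 (Atf3). Differences between lines ranged from -0.69 to 0.041 (Fosb) and -1.64 to 0.16 (Atf3). Between WT lines the ranges were -0.24 to 0.25 (Fos), -0.084 to 0.12 (Junb) and -0.22 to 0.019 (Jund), and between RTF2-deficient lines -0.041 to 0.090 (Fosl2), -0.14 to 0.069 (Egr1) and -0.26 to 0.00072 (Ier3). Of single members' values under an alternative, 752 kept direction and side of the threshold, 38 lost a call, 7 gained one and 43 changed sign.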
